A study of Homo sapiens with 11 samples.

Results

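The ribosome biogenesis genes described here are 44 genes picked by symbol, which code for snoRNP proteins, processome and pre-ribosome assembly factors, abundant nucleolar proteins and RNA polymerase I components. The platform's annotation gave 41 of the 44 at least 1 probe, 59 probes in all, out of 18852 genes annotated with a single symbol. WDR43, GNL3 and EBNA1BP2 had no annotated probe. A level above background was measured for 37 of the 41 (48 probes), of 9854 genes measured in all, and 35 of the 37 were detected on all 11 arrays. The probes of UTP20, POLR1A, RRP1 and NPM1 were too dim to be used. PES1 was detected on 2 of 6 induced and 5 of 5 non-induced arrays, and UTP3 on 5 of 6 and 5 of 5.

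The study knocked down L1TD1, an RNA-binding protein of pluripotent cells, in NT2D1, an established human line derived from embryonal carcinoma whose cells resemble undifferentiated stem cells. All samples came from clones that stably carry TetR3, a tetracycline repressor, and an shRNA against L1TD1, so the groups differed in whether doxycycline had switched the shRNA on. The induced group held 6 samples with doxycycline and the non-induced group 5 samples without it, collected on day 6, each measured once on an Illumina bead array. The submitters state that 1 sample had been set aside because it did not group with its condition. No cells without the shRNA were analysed here, so an effect of doxycycline itself and an effect of the knockdown cannot be told apart. The column headers call 3 induced and 3 non-induced samples shRNA1, and 3 induced and 2 non-induced samples shRNA5; the labels do not say how these differ, and clones and shRNA name cannot be told apart. The design text gives each clone an induced and a non-induced sample, and p-values measure the spread between these samples only.

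Ribosomes are assembled in the nucleolus, where RNA polymerase I makes the long precursor of the ribosomal RNAs. Box C/D and H/ACA snoRNPs guide methylation and pseudouridylation of this precursor, the U3 snoRNP and the small subunit processome cut out the small subunit RNA, and a separate set of factors matures the large subunit. Many of these genes are known targets of MYC-family transcription factors, which bind the E-box CACGTG, and dividing stem cells are known for high nucleolar activity.

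The promoters of the members are shown first, because many of them had an E-box in the window around the start site. This feature played no part in choosing the members. RefSeq promoter windows (GRCh38.p14, from 250 bases before to 50 bases after a start) were available for 38 of the 44 members, and 18 of these (47.4%) held CACGTG, a palindrome that reads alike on both strands. The motif was present for 1064 of 8094 measured genes with a window (13.1%) and for 2396 of 27305 genes of the whole table (8.77%). Of the 22 motifs in member windows, 13 began within 25 bases of the start, each in a different member. The share of all genes with a motif that close to the start was not computed. Below are stretches of 75 bases, from 50 before to 25 after the start, with the motif in capitals. RRP9, NOP10, NOP14, PES1, UTP18 and DDX21 are shown as members with the motif described further on. NOP56 is shown because it was among the members with the largest differences and its window held no match.
RRP9: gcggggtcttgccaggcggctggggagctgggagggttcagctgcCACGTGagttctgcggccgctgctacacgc
NOP10: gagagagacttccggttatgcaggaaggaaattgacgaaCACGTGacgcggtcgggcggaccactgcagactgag
NOP14: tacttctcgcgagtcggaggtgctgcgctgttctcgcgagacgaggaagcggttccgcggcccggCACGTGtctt
PES1: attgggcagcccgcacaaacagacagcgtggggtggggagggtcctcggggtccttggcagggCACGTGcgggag
UTP18: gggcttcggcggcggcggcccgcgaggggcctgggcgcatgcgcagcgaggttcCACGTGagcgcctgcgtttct
DDX21: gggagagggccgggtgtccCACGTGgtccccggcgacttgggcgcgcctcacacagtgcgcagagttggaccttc
NOP56: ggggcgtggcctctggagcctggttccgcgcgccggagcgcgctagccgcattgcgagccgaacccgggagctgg
The stretches lie at chr3:51941880-51941954 on the minus strand for RRP9, chr15:34343112-34343186 on the minus strand for NOP10 and chr4:2963382-2963456 on the minus strand for NOP14. Those of PES1 and UTP18 lie at chr22:30591886-30591960 on the minus strand and chr17:51260496-51260570 on the plus strand. Those of DDX21 and NOP56 lie at chr10:68956597-68956671 and chr20:2652582-2652656, both on the plus strand. Counting the first transcribed base as 1, the motif began at -5 in RRP9, -11 in NOP10, 16 in NOP14, 14 in PES1, 5 in UTP18 and -31 in DDX21. NOP10 and UTP18 each held another match further upstream, at -170 and -89, and DDX21 had another listed start whose window held none. A match of letters is a description and says nothing about binding in these cells.

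Levels are given as normalized log2 intensity of the brightest usable probe of each gene, so a difference of 1 is a 2-fold difference, and levels of different genes are not compared. L1TD1 itself measured 8.04, 7.65 and 7.34 in the induced shRNA1 samples and 8.09, 8.33 and 7.57 in the induced shRNA5 samples. The non-induced samples measured 8.55, 8.57 and 8.86 (shRNA1) and 8.82 and 8.91 (shRNA5). No induced sample reached the lowest non-induced one, and the difference over all 11 samples was -0.91 ± 0.18 (SE; limma, adjusted p = 0.0753), with -0.98 ± 0.23 in shRNA1 (adjusted p = 0.0334) and -0.87 ± 0.25 in shRNA5 (adjusted p = 0.785). Markers of undifferentiated cells (POU5F1, SOX2, NANOG, LIN28A and DPPA4) were detected on all 11 arrays, while the endoderm markers GATA6, SOX17 and AFP were detected on 0 of 11. Of the mesenchymal markers, COL1A2 and TWIST1 were detected on all 11 arrays and COL3A1 on 0 of 6 induced and 2 of 5 non-induced, and of the neural ones STMN2 on 4 of 6 and 5 of 5 and DCX on 4 of 6 and 4 of 5. Between 13301 and 15127 of 48803 probes were detected per array. The mean raw intensity was 373 ± 26.8 in induced and 427 ± 29.2 in non-induced samples (SD, n = 6 and 5, exact two-sided permutation p = 0.0152). It was 361 in induced against 436 in non-induced samples of shRNA1, and 385 against 412 in shRNA5, so the gap was wider in shRNA1. Quantile normalization sets all arrays to a common distribution, and the part of this gap in the results below was not tested.

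Over all 11 samples the ribosome biogenesis genes were mostly a little lower with doxycycline, and none passed the test after adjustment. Of the 37 measured members, 32 had a lower mean in induced samples, against 48.3% of all measured genes, and their median difference was -0.21 against 0.01 for all genes. At an adjusted p under 0.05 in limma, 0 members passed, where 0.0507% of all genes did. At an unadjusted p under 0.05, 9 members were lower (7.51% of all genes) and 1 was higher (8.54%); this total of 10 was 6 without non-induced 1. PES1 entered these counts mainly through its level in non-induced samples, and without it 31 of 36 members were lower, with a median of -0.20, and 8 were lower at an unadjusted p under 0.05. In RRS1 and POLR1B every induced sample lay under every non-induced one (0.964% of all genes), and in UTP6 every induced sample lay above (1.04%). Bulk RNA cannot tell fewer expressing cells from less RNA per cell.

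The pattern was not the same in the 2 sets of samples. In shRNA1, 32 of 37 members had a lower mean in induced than in non-induced samples (50% of all genes). Their median difference was -0.37 against 0.00 for all genes. Without PES1, 31 of 36 were lower, with a median of -0.36. In shRNA5, 19 members were lower and 18 higher (48.4% of all genes lower), with a median of 0.00 against 0.01. In shRNA1 the induced samples did not overlap the non-induced ones in 19 members that were lower (14.6% of all genes) and 1 that was higher, UTP6 (15%). In shRNA5 this held for 5 lower members (10.9%) and 7 higher ones (12.6%). The difference between the sets was positive, that is less negative or more positive in shRNA5, in 32 of the 37 members, with a median of 0.32 against 0.00 for all genes. It was negative in 5 members (49.6% of all genes). Without PES1 it was positive in 31 of 36, with a median of 0.31. In limma it passed an unadjusted p under 0.05 in 7 members with a positive difference (6.1% of all genes) and 0 with a negative one (6.13%), and an adjusted p under 0.05 in 0 (0.0203%). The count of 7 was 4 without induced 1, induced 5, non-induced 3 or non-induced 4.

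**Figure D1:**
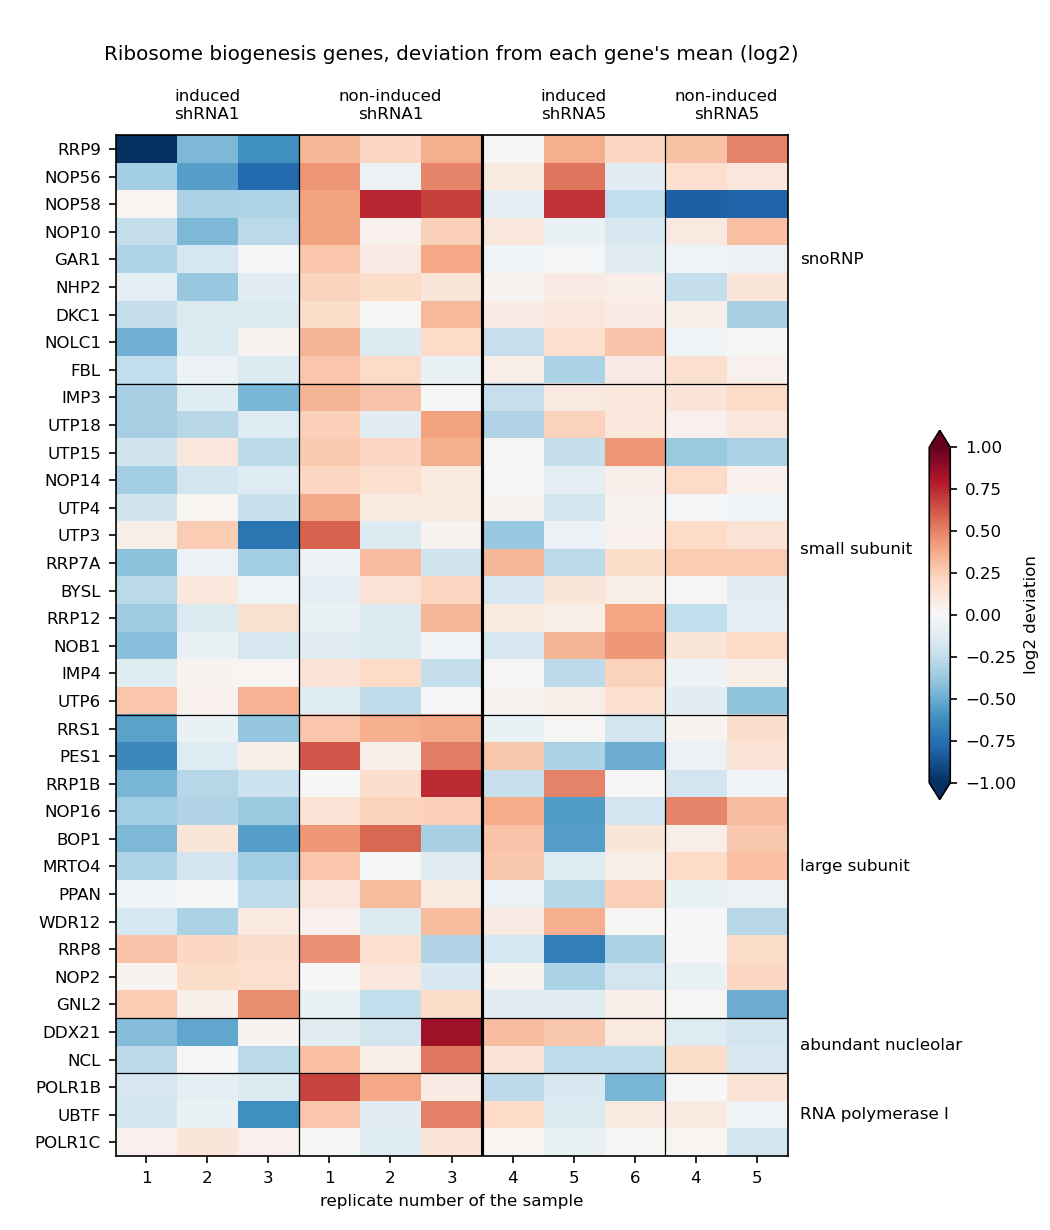
Heat map of the 37 measured ribosome biogenesis genes (down the page, by role) in the 11 samples (across, by group and set, with replicate numbers), coloured by the log2 deviation from each gene's mean over all samples; colours end at 1 above and below. The 3 induced shRNA1 columns are mostly blue and the 3 non-induced shRNA1 columns mostly red, while the 5 shRNA5 columns are mixed.

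The shift could be seen sample by sample. The mean deviation of the 37 members from their own averages was -0.25, -0.11 and -0.17 in the induced shRNA1 samples, against 0.22, 0.09 and 0.20 in the non-induced shRNA1 samples. It was 0.01, -0.03 and 0.03 in the induced shRNA5 samples, against 0.01 and 0.01 in the non-induced ones. All 3 induced shRNA1 samples were thus below every other sample, and all 3 non-induced shRNA1 samples above every other one. The shRNA5 samples lay between them, with no gap between induced and non-induced. The mean raw intensity of the shRNA1 arrays had the same order as these deviations. It was 348, 378 and 358 in induced and 461, 395 and 453 in non-induced shRNA1 samples. In shRNA5 it was 375, 423 and 357 in induced samples, against 418 and 406 in non-induced ones. The part of array brightness in the shift was not tested. Samples with the same replicate number, taken here as the same clone although no label states it, gave 5 pairs. The median difference of the members within a pair was -0.47, -0.17 and -0.32 in the shRNA1 pairs, with 33, 28 and 32 of 37 lower (49.4%, 49.3% and 50.2% of all genes). It was 0.01 and -0.10 in the shRNA5 pairs, with 17 and 21 of 37 lower (47% and 49.3% of all genes). FBL, IMP3, NCL, NOP14, NOP16, POLR1B, RRP9 and RRS1 were lower in all 5 pairs (8 members, against 6.2% of all genes), and UTP6 alone was higher in all 5 (6.96%). Of these, NCL and POLR1B have a second, dimmer probe that was not lower in every pair.

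Within shRNA1, 3 members passed the test, all lower in induced samples (1.99% of all genes): RRP9, RRS1 and NOP56. At an unadjusted p under 0.05, 16 members were lower (11.6% of all genes) and 0 were higher (12.6%). The count of 16 was 15 without PES1 as a member, 10 without the sample induced 1 and 9 without non-induced 1. With the replicate number as a block 4 members passed, NOP58 being added, and 1356 probes in place of 698 over the whole array. The 3 calls rested on few samples: 0 members passed when induced 1, non-induced 1, induced 3 or non-induced 3 was left out, and RRP9 alone passed without induced 4, non-induced 4 or non-induced 5. RRS1 did not pass without non-induced 2, nor NOP56 without induced 2. In shRNA5, limma passed 0 members and 0 probes in all (0% of genes). At an unadjusted p under 0.05 there were 1 lower member, NOP16 (2.31% of all genes), and 1 higher member, NOP58 (2.71%).

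Of the snoRNP proteins, all 9 were lower in induced shRNA1 samples (50% of all genes), with a median of -0.41, and 2 of the 9 passed the test (1.99%). In shRNA5 3 of the 9 were lower (48.4% of all genes) and their median was 0.04. RRP9, the protein specific to the U3 snoRNP (probe ILMN_1689972), measured 6.80, 7.57 and 7.40 in induced shRNA1 samples, against 8.35, 8.22 and 8.38 in non-induced ones. It measured 8.03, 8.38 and 8.22 in induced shRNA5 samples, against 8.31 and 8.51 in non-induced ones. The induced shRNA1 samples were the lowest of all 11, and the shRNA5 groups overlapped. RRP9 fell in shRNA1, by 1.06 ± 0.20 on the log2 scale (2.09-fold lower; limma, adjusted p = 0.0192), the lowest value of any member in that set. In shRNA5 its difference was -0.20 ± 0.23 (adjusted p = 0.926), and the difference between the sets was 0.86 ± 0.30 (adjusted p = 0.322).

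NOP56, a core protein of the box C/D snoRNPs (probe ILMN_1787628), measured 11.14, 10.93 and 10.70 in induced shRNA1 samples, against 11.92, 11.42 and 11.97 in non-induced ones. In shRNA5 it measured 11.57, 12.01 and 11.37 in induced samples, against 11.64 and 11.59 in non-induced ones. The shRNA1 groups did not overlap, while in shRNA5 the induced values spanned the non-induced ones. NOP56 fell in shRNA1, by 0.85 ± 0.21 on the log2 scale (1.8-fold lower; limma, adjusted p = 0.0426), and differed by 0.04 ± 0.24 in shRNA5 (adjusted p = 0.993). Its other 2 usable probes gave differences of -0.78 (adjusted p = 0.0863) and -0.24 (adjusted p = 0.56) in shRNA1, in the same direction but past no threshold. Without a filter on dim probes the call of NOP56 in shRNA1 was lost (adjusted p = 0.0859).

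NOP58, the partner of NOP56 in the box C/D snoRNPs (probe ILMN_1748476), was the member whose response differed most between the sets. It measured 8.32, 7.98 and 7.99 in induced shRNA1 samples, against 8.70, 9.05 and 8.98 in non-induced ones. It measured 8.21, 9.02 and 8.05 in induced shRNA5 samples, against 7.48 and 7.50 in non-induced ones. The groups did not overlap in either set, and they lay in opposite order. The induced levels of the sets overlapped, while the non-induced shRNA5 samples were the lowest of all 11. The difference was -0.82 ± 0.23 in shRNA1 (limma, adjusted p = 0.0595) and 0.94 ± 0.26 in shRNA5 (adjusted p = 0.785). The difference between these effects was 1.75 ± 0.35 (95% interval 1.00 to 2.51; unadjusted p = 0.000243, adjusted p = 0.196), so it did not pass over all probes. It passed with array weights, at 1.48 (adjusted p = 0.0332).

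The H/ACA proteins had smaller differences in shRNA1 than RRP9, NOP56 and NOP58. NOP10, a small structural protein of these particles, measured 12.07, 11.86 and 12.04 in induced shRNA1 samples, against 12.71, 12.35 and 12.55 in non-induced ones, without overlap. Its shRNA5 values overlapped, at 12.42, 12.24 and 12.15 in induced samples, against 12.40 and 12.61 in non-induced ones. Its difference over all 11 samples was -0.39 ± 0.13 (unadjusted p = 0.00906, limma adjusted p = 0.173). GAR1, another core protein of the H/ACA snoRNPs, differed by -0.41 ± 0.16 in shRNA1 (adjusted p = 0.128) and by 0.00 ± 0.17 in shRNA5 (adjusted p = 0.998). Its probes did not give the same picture, since the dimmest of the 3 differed by -1.11 ± 0.31 in shRNA5 (adjusted p = 0.785). DKC1, the pseudouridine synthase, and NHP2 differed by -0.34 and -0.37 in shRNA1 and by 0.23 and 0.11 in shRNA5, with no adjusted p under 0.05. FBL, the methyltransferase fibrillarin, and NOLC1, a snoRNP chaperone, differed by -0.28 and -0.32 in shRNA1 and by -0.16 and 0.09 in shRNA5.

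**Figure D2:**
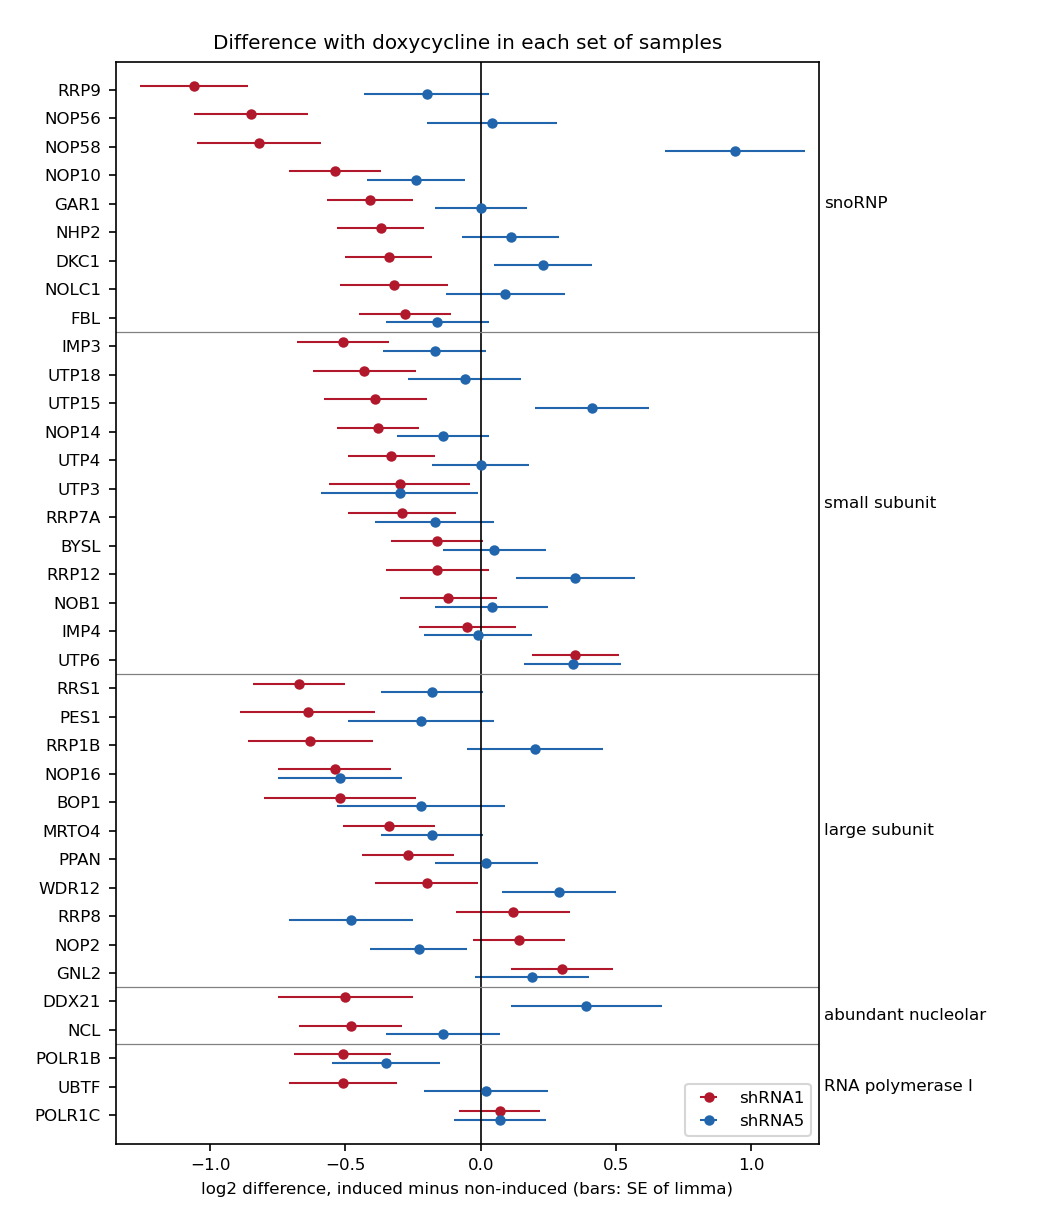
Log2 difference, induced minus non-induced, of each of the 37 members in shRNA1 (red) and shRNA5 (blue), by role; points are the fitted differences and bars the SE of limma; PES1 was above background on 2 of 6 induced arrays. RRP9, NOP56 and NOP58 lie furthest to the left in shRNA1, at -1.06, -0.85 and -0.82, and NOP58 furthest to the right in shRNA5, at 0.94.

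Among the 12 measured small subunit factors, 11 were lower in induced shRNA1 samples (50% of all genes), with a median of -0.30. In shRNA5 7 were lower (48.4% of all genes), with a median of -0.01. In either set 0 passed the test, where 1.99% of all genes passed as lower and 2.73% as higher in shRNA1, and 0% in shRNA5. IMP3, which binds the U3 snoRNA in the processome, measured 11.48, 11.69 and 11.36 in induced shRNA1 samples, against 12.15, 12.10 and 11.82 in non-induced ones. The shRNA5 values were 11.58, 11.90 and 11.92 in induced samples, against 11.94 and 12.01 in non-induced ones. Every induced sample of a set was below every non-induced sample of the same set. Over all 11 samples its difference was -0.35 ± 0.14 (unadjusted p = 0.0224, limma adjusted p = 0.226).

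UTP6, a processome protein of the subcomplex known as UTP-B in yeast, was the exception. It measured 9.27, 9.04 and 9.34 in induced shRNA1 samples and 9.02, 9.05 and 9.15 in induced shRNA5 samples. The non-induced samples measured 8.87, 8.74 and 8.98 in shRNA1 and 8.88 and 8.59 in shRNA5. All 6 induced samples lay above all 5 non-induced ones, and the difference of 0.33 ± 0.12 did not pass adjustment (unadjusted p = 0.0168, limma adjusted p = 0.206). It was 0.35 ± 0.16 in shRNA1 and 0.34 ± 0.18 in shRNA5, and no member had a higher value in shRNA1.

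UTP15, a processome protein that is also needed for transcription of ribosomal DNA, measured 6.32, 6.63 and 6.26 in induced shRNA1 samples, against 6.78, 6.73 and 6.88 in non-induced ones. The shRNA5 values were 6.53, 6.28 and 6.96 in induced samples, against 6.15 and 6.20 in non-induced ones. As in NOP58, the groups lay apart in both sets and in opposite order. The differences were -0.39 ± 0.19 in shRNA1 (limma, adjusted p = 0.229) and 0.41 ± 0.21 in shRNA5 (adjusted p = 0.845), and the sets differed by 0.81 ± 0.29 (adjusted p = 0.322). NOP14 and UTP18, both processome proteins, differed by -0.38 ± 0.15 and -0.43 ± 0.19 in shRNA1 (adjusted p = 0.14 and 0.189) and by -0.14 and -0.06 in shRNA5. The remaining small subunit factors were the processome proteins UTP3, UTP4, RRP7A and IMP4, the assembly factors RRP12 and BYSL and the nuclease NOB1. They lay between -0.33 and -0.05 in shRNA1 and between -0.30 and 0.35 in shRNA5.

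Of the 11 measured large subunit factors, 8 were lower in induced shRNA1 samples (50% of all genes), with a median of -0.34, and 1 passed the test (1.99%). In shRNA5 7 were lower (48.4% of all genes), with a median of -0.18. PES1, detected on 2 of 6 induced arrays, is among the lower ones in both counts. RRS1, which helps to bring the 5S ribonucleoprotein into the pre-ribosome (probe ILMN_1767658), measured 9.57, 10.04 and 9.72 in induced shRNA1 samples, against 10.38, 10.47 and 10.48 in non-induced ones. In shRNA5 it measured 10.04, 10.12 and 9.92 in induced samples, against 10.13 and 10.28 in non-induced ones. The 6 induced samples were the lowest 6 of all 11, by a narrow margin in shRNA5. RRS1 fell in shRNA1, by 0.67 ± 0.17 on the log2 scale (1.59-fold lower; limma, adjusted p = 0.0415). Its difference was -0.18 ± 0.19 in shRNA5 (adjusted p = 0.923) and -0.45 ± 0.14 over all 11 samples (adjusted p = 0.147), the smallest p of any member there.

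NOP16, a nucleolar factor of large subunit assembly, was the member with the lowest value in shRNA5 and nearly the same one in shRNA1. It measured 7.67, 7.72 and 7.65 in induced shRNA1 samples, against 8.16, 8.25 and 8.26 in non-induced ones. Its shRNA5 values were 8.39, 7.46 and 7.83 in induced samples, against 8.51 and 8.33 in non-induced ones. In shRNA1 the groups lay well apart, and in shRNA5 induced 4 lay between the non-induced samples. The differences were -0.54 ± 0.21 and -0.52 ± 0.23, and over all 11 samples -0.51 ± 0.16 (unadjusted p = 0.00535, limma adjusted p = 0.148).

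PES1, BOP1 and WDR12 form the PeBoW complex, which is needed to process the large subunit RNA. PES1 was above background on 2 of 6 induced and all 5 non-induced arrays, so no size of its difference is given. It measured 5.36, 5.88 and 6.06 in induced shRNA1 samples, against 6.64, 6.06 and 6.52 in non-induced ones, and 6.28, 5.69 and 5.51 in induced shRNA5 samples, against 5.95 and 6.14. BOP1 differed by -0.52 ± 0.28 and -0.22 ± 0.31, with overlapping groups in both sets. WDR12 differed by -0.20 ± 0.19 and 0.29 ± 0.21. Neither passed the test in limma, and the subunits were not tested against each other. RRP1B, a nucleolar protein, differed by -0.63 ± 0.23 in shRNA1 (adjusted p = 0.112) and by 0.20 ± 0.25 in shRNA5. MRTO4 and PPAN, factors of large subunit assembly, differed by -0.34 and -0.27 in shRNA1 and by -0.18 and 0.02 in shRNA5. Against the majority, GNL2, a nucleolar GTPase, NOP2, an RNA methyltransferase, and RRP8, a methyltransferase-like nucleolar protein, were higher in induced shRNA1 samples, by 0.30, 0.14 and 0.12, with no adjusted p under 0.05. RRP8 and NOP2 differed by -0.48 and -0.23 in shRNA5. The second usable probe of NOP2 differed by 0.43 there, so the probes did not share a direction.

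**Figure D3:**
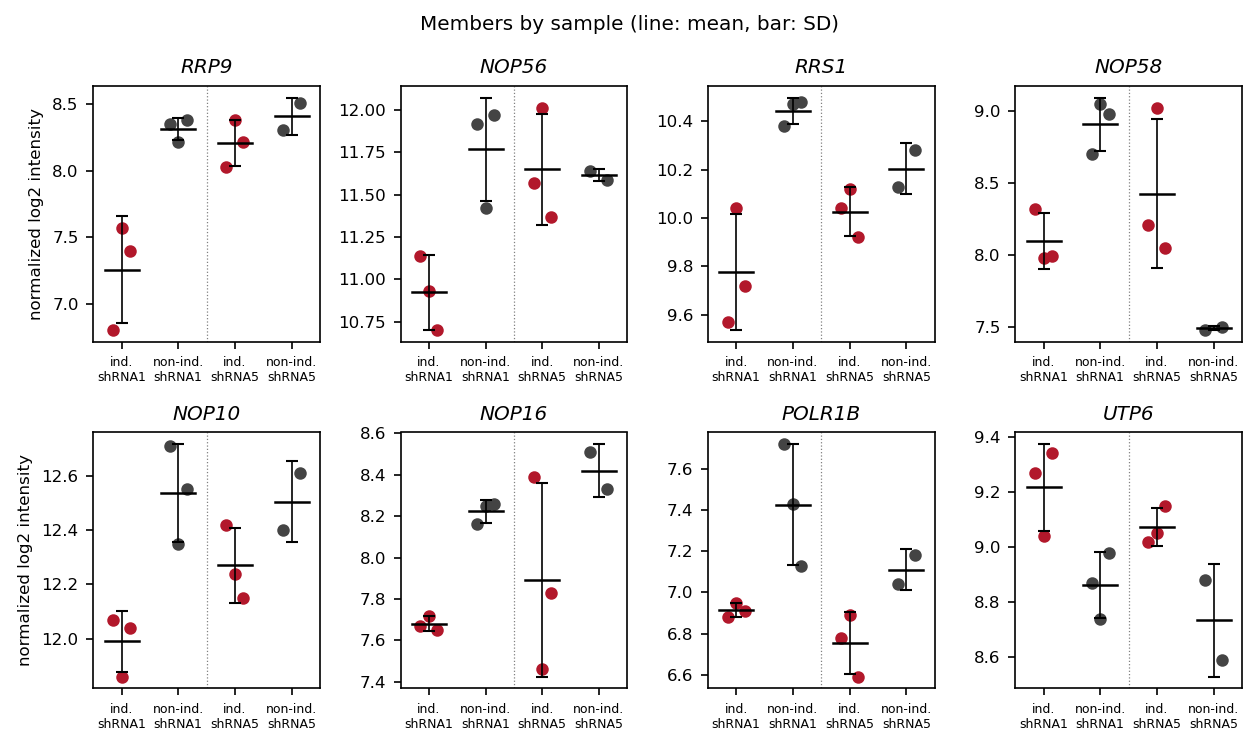
Normalized log2 intensity of 8 members in each sample, with induced samples in red left of non-induced samples in grey for shRNA1 and for shRNA5; lines are means and bars SDs (n = 3, 3, 3 and 2). RRP9, NOP56, RRS1 and NOP10 separate the groups in shRNA1, NOP58 separates them in opposite order in the 2 sets, and UTP6 is higher in induced samples of both.

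Of the abundant nucleolar proteins, nucleolin (NCL), which binds ribosomal RNA precursor and chromatin, measured 12.00, 12.26 and 11.99 in induced shRNA1 samples, against 12.56, 12.33 and 12.79 in non-induced ones. In shRNA5 it measured 12.39, 12.01 and 12.01 in induced samples, against 12.45 and 12.10 in non-induced ones. The groups lay apart in shRNA1 and overlapped in shRNA5. Its difference over all 11 samples was -0.34 ± 0.14 (unadjusted p = 0.0341, limma adjusted p = 0.266). DDX21, an RNA helicase of the nucleolus, measured 10.53, 10.44 and 10.99 in induced shRNA1 samples, against 10.86, 10.78 and 11.81 in non-induced ones. In shRNA5 all induced samples were higher, at 11.27, 11.23 and 11.06, against 10.83 and 10.78 in non-induced ones. Its differences were -0.50 ± 0.25 and 0.39 ± 0.28, and the sets differed by 0.88 ± 0.38 (unadjusted p = 0.0367, limma adjusted p = 0.38). The sign of its difference over all 11 samples, -0.09 ± 0.21, turned to 0.11 without non-induced 3.

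Among the RNA polymerase I genes, POLR1B, the second-largest subunit, was lower in both sets by its brightest probe. It measured 6.88, 6.95 and 6.91 in induced shRNA1 samples and 6.78, 6.89 and 6.59 in induced shRNA5 samples. The non-induced samples measured 7.72, 7.43 and 7.13 in shRNA1 and 7.04 and 7.18 in shRNA5. All 6 induced samples lay under all 5 non-induced ones, with a difference of -0.46 ± 0.14 (unadjusted p = 0.00565, limma adjusted p = 0.15). Its dimmer probe, detected on 4 of 6 induced and 4 of 5 non-induced arrays, differed by -0.67 ± 0.34 in shRNA1 and by 0.37 ± 0.39 in shRNA5, so the probes did not share a direction there. UBTF, the factor that opens ribosomal DNA to the polymerase, differed by -0.51 ± 0.20 in shRNA1 (adjusted p = 0.144) and by 0.02 ± 0.23 in shRNA5. POLR1C, shared by RNA polymerases I and III, differed by 0.07 in both sets, and its second probe by -0.29 and 0.03.

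A group of 7 members, DDX21, DKC1, GAR1, NOP58, RRP12, UTP15 and WDR12, was lower in the induced sample of all 3 shRNA1 pairs and higher in that of both shRNA5 pairs, a pattern that 7.62% of all genes had. GAR1 had this pattern by its brightest probe only, at 11.31 and 11.33, and 11.30 and 11.34, in non-induced and induced samples of the shRNA5 pairs. Its dimmer usable probes were lower in the induced sample of both shRNA5 pairs. Another 20 members were lower in the 3 shRNA1 pairs without being higher in both shRNA5 pairs, since 27 members were lower in the 3 shRNA1 pairs altogether (25.1% of all genes). Between the sets, averaged over induced and non-induced samples, RRP9 was 0.57, NOB1 0.34 and MRTO4 0.28 higher in shRNA5 than in shRNA1. These 3 members were higher at an unadjusted p under 0.05 in limma (5.53% of all genes), and 0 were lower (5.72%). For RRP9 the gap lay mostly in induced samples, with means of 7.26 in shRNA1 and 8.21 in shRNA5, against 8.32 and 8.41 in non-induced ones. The means of NOB1 were 7.97 and 8.39 in induced and 8.10 and 8.35 in non-induced samples. Those of MRTO4 were 8.74 and 9.09, and 9.08 and 9.27. The count of 3 was 1 without induced 1 or induced 6, and 5 without induced 5 or non-induced 3. No member passed adjustment there in limma (0.0812% of all genes), and the median difference of the members was 0.04.

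The rest of the pathway was described with 109 further ribosome biogenesis genes, of which 98 were measured. In shRNA1, 77 of the 98 were lower in induced samples (50% of all genes), with a median of -0.22. At an unadjusted p under 0.05, 26 were lower and 1 higher (11.6% and 12.6% of all genes). After adjustment 5 passed the test, all lower (1.99%). These were UTP14A, a processome protein, at -1.04 ± 0.19 (limma, adjusted p = 0.019), and EMG1, an RNA methyltransferase, at -0.80 ± 0.20 (adjusted p = 0.0415). The other 3 were RRP15 at -0.72 ± 0.19 (adjusted p = 0.0463), the nucleolar kinase NOL9 at -0.70 ± 0.18 (adjusted p = 0.0426) and NIP7, a factor of large subunit assembly, at -0.61 ± 0.16 (adjusted p = 0.0494). In shRNA5, 32 of the 98 were lower (48.4% of all genes) and 66 higher, with a median of 0.08 against 0.01 for all genes. There 0 passed (0% of all genes), and 1 was lower and 2 higher at an unadjusted p under 0.05 (2.31% and 2.71%). With both sets together 71 were lower (48.3% of all genes), with a median of -0.06, and 0 passed (0.0507%). Without adjustment 13 were lower and 0 higher (7.51% and 8.54% of all genes). The 72 measured cytosolic ribosomal protein genes, whose products the members help to assemble, had medians of -0.02 in shRNA1, -0.04 in shRNA5 and -0.01 over all 11 samples. In shRNA1 3 of them passed as lower (1.99% of all genes) and 1 as higher (2.73%).

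**Figure D4:**
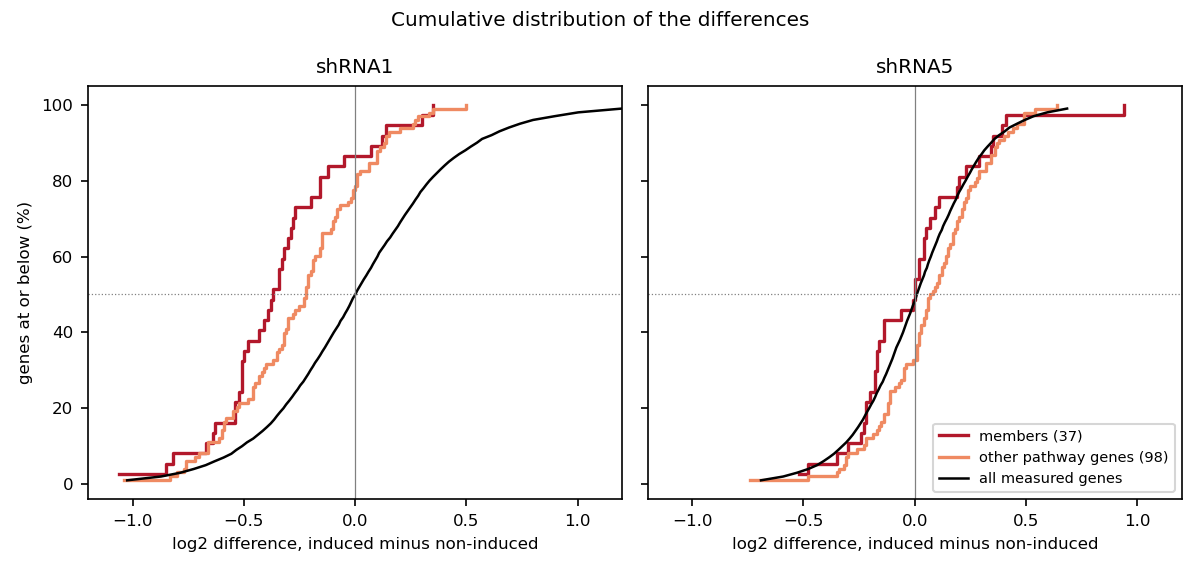
Cumulative share of genes (percent) against the log2 difference, induced minus non-induced, in shRNA1 (left) and shRNA5 (right) for the 37 members, 98 other pathway genes and all measured genes, the last drawn from their percentiles; the axis ends at 1.2. The curves of both pathway lists lie left of that of all genes in shRNA1, with medians of -0.37 and -0.22 against 0.00. In shRNA5 the median is 0.00 for the members and 0.08 for the other pathway genes, against 0.01 for all genes.

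Members with and without the E-box had similar medians in shRNA1, and no test was run in either set. In shRNA1 the 14 measured members with the motif had a median difference of -0.36 (12 lower), against -0.34 for the 17 measured members with a window and no motif (14 lower). In shRNA5 the medians were -0.10 with the motif (9 of 14 lower) and 0.02 without it (7 of 17 lower). PES1, detected on 2 of 6 induced arrays, is among the lower members with the motif in both sets. MYC itself differed by 0.00 ± 0.30 in shRNA1 and by 0.63 ± 0.34 in shRNA5 (limma, adjusted p = 0.999 and 0.854), and MYCN by -0.38 ± 0.17 and -0.15 ± 0.20 (adjusted p = 0.207 and 0.936).

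Marker genes differed among themselves in shRNA1. NANOG, a pluripotency factor, measured 9.57, 9.68 and 9.92 in induced shRNA1 samples, against 10.17, 10.46 and 10.16 in non-induced ones, and 10.31, 10.28 and 10.81 in induced shRNA5 samples, against 10.08 and 9.93. Its order was thus opposite in the sets, as in NOP58 (difference between the effects 1.00 ± 0.28, limma adjusted p = 0.276). The other markers of undifferentiated cells differed in shRNA1 by -0.68 ± 0.35 for SOX2, -0.19 ± 0.28 for POU5F1, -0.04 ± 0.15 for LIN28A and 0.06 ± 0.19 for DPPA4. COL1A2, a mesenchymal collagen, differed by -1.70 ± 0.61 in shRNA1 and 0.22 ± 0.68 in shRNA5, TWIST1, a mesenchymal transcription factor, by 0.19 ± 0.21 and -0.22 ± 0.23, and MKI67, a proliferation marker, by -0.57 ± 0.22 and -0.37 ± 0.25, with no adjusted p under 0.05. The summed linear level of the 5 measured markers of undifferentiated cells (of 6) ranged over 23289 to 25634 in induced and 24892 to 27989 in non-induced shRNA1 samples, and over 25708 to 30021 and 23877 to 27111 in shRNA5. That of the 2 measured mesenchymal markers (of 3) ranged over 301 to 463 in induced and 360 to 1303 in non-induced shRNA1 samples, and over 494 to 920 and 542 to 825 in shRNA5. That of the 2 measured neural markers (of 3) ranged over 127 to 139 in induced and 163 to 176 in non-induced shRNA1 samples. In shRNA5 it ranged over 87 to 159 and 156 to 167. The sum for undifferentiated cells is weighted to its brightest probes, those of LIN28A and DPPA4. Their mean log2 levels were 13.71 and 12.78 in induced samples, against 11.55 for POU5F1, 10.55 for SOX2 and 10.10 for NANOG. That sum can therefore miss differences in the dimmer markers. ATF5 and ASNS, genes of the amino acid stress response, rose over all 11 samples, by 1.85 ± 0.27 and 1.28 ± 0.20 (limma, adjusted p = 0.0294 and 0.0296, and 0.24 for both with the replicate number as a block). The part of these genes in the lower member levels was not tested.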

How the data were processed

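Total RNA was hybridised to Illumina bead arrays, 1 per sample. The deposited table holds a raw intensity and a detection p-value per probe and array, for 48803 probes, per the file headers. A second deposited table holds the authors' quantile-normalized intensity on a linear scale, used as an alternative. The authors used limma, per the submitters' processing notes; its version is not given in the sources used here.

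For the results, R 4.3.3 with limma 3.58.1 (neqc) was run on the raw intensities (background from the detection p-values, offset 16, log2, quantile normalization). The 14338 probes detected at 0.01 in 5 or more arrays were kept. Of all probes 28098 had 1 gene symbol in the platform annotation, 13 several, and 20692 were unnamed here. Each of 9854 genes was taken by its brightest kept probe, and 9 members had more than 1; in 7 of these all probes shared a direction over all samples (not NOP2 and POLR1C). No probe-level precision is given beyond the spread between arrays, whose number (11) limits it.

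Induced and non-induced samples were compared with limma's moderated test (two-sided, Benjamini-Hochberg over all 14338 probes, 0.05), with group alone or with group, set (shRNA1 or shRNA5, from the title prefix and the column headers) and their interaction. Named genes are the members with the smallest p in each role, those past the threshold, those with the smallest p for the difference between sets, the extremes of each set and fixed context genes; other members are named in passing, after their values were seen. The members, lists and tests were chosen with earlier results of these data known. The scripts were tested on simulated data. Same-numbered samples had deviations from their group means that correlated at 0.10, 0.40, -0.06, 0.05 and -0.19, and 1 of 5 exceeded 0.1. That same-numbered samples share a clone is an assumption: the design text gives 2 samples to a clone and the sample descriptions give replicate numbers, but no label links them.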

Additional observations from a re-analysis of the deposited data

Results flagged for a closer look

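For the named members, L1TD1, the context genes and the members' mean deviation, 52 groups of values (each in the induced or the non-induced samples) were searched for a sample far from the others, of which chance sets apart about 1 in 20, and 2 such samples were found. DDX21 measured 11.81 in non-induced replicate 3, an shRNA1 sample, and the nearest of the other non-induced samples measured 10.86. NOP58 measured 9.02 in induced replicate 5, an shRNA5 sample, and the nearest of the other induced samples measured 8.32. The cause of either value was not tested.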

How the results depend on the processing

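The median difference of the members kept its sign over all samples and in shRNA1 under every alternative run, with -0.23 to -0.17 over all samples and -0.43 to -0.34 in shRNA1 when 1 sample was left out; in shRNA5 it was -0.07 to 0.00. Scaling to a common median moved the median of all genes to -0.12 overall and -0.22 in shRNA1, and that of the members to -0.36 and -0.61. Over all 11 samples 6 probes passed (2329 at an unadjusted p under 0.05), against 17 with the authors' values or without background correction, 1 without a detection filter, 13 for probes detected on all arrays, 31 with array weights, 0 with the replicate block (2004 unadjusted), 21 with a random replicate block, and 0 to 26 with 1 sample left out. In shRNA1 698 probes passed, against 292 without a filter, 2674 with array weights, 1356 with the replicate block, 1510 with the random block and 1 to 1138 with 1 sample left out. Of the members 3 passed in shRNA1, against 5 with the authors' values, without background correction, with median scaling or with the random block, 13 with array weights, 4 with the replicate block, 2 without a detection filter (NOP56 lost, adjusted p = 0.0859) and 0 to 4 with 1 sample left out. The difference between sets passed in 1 member with array weights. The sign over all samples turned to -0.09 for POLR1C with median scaling, to 0.01 for DDX21 with array weights, and with 1 sample left out the values ran from -0.30 to 0.10 for NOP58, from -0.15 to 0.03 for UTP15 and from -0.16 to 0.11 for DDX21, none past the threshold. Among the members and context genes recomputed with the replicate block, ATF5 and ASNS lost their calls over all samples and NOP58 gained one in shRNA1; the block could not be fitted for the level of shRNA5 against shRNA1. Alternatives for counts within a set were chosen after seeing the data. Leaving out a non-induced shRNA5 sample leaves 1 in that arm, whose spread is taken from the other groups. The causes were not tested. The small number of arrays and dim signals (PES1, UTP3) limit precision.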
